A study of Homo sapiens with 12 samples.

Results

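The focal adhesion genes described here are 43 genes that encode the kinases, adaptors and scaffolds gathered around focal adhesion kinase (FAK) at the inner side of integrins, without the integrins themselves. They were chosen by name, as the rows of the array table whose gene name is on the list, out of 34599 gene names with a probe. All 43 had 1 or more probes detected (detection p under 0.05) on 2 or more arrays, against 19089 of the 34599 gene names. They have 87 probes on the array, of which 66 were tested and 21 did not pass this detection filter. A single tested probe stood for 25 genes and 2 to 4 probes for the other 18, and each probe was reported on its own.

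RNA levels were read on HumanHT-12 v4 bead arrays of Illumina, which carry probes for human transcripts. The RNA came from 2 established lines of human pancreatic adenocarcinoma, MIA PaCa-2 and Capan-1. The 6 groups were each cell line with a scrambled control hairpin (shCtrl) or with 1 of 2 hairpins against FAK, named sh1209 and sh1319. The label of the latter reads shFAK1319 in Capan-1 and was taken as the same hairpin. In all groups the hairpin sat in a pLKO.1 tet-on backbone with puromycin selection, at 3.5 ug/ml in MIA PaCa-2 and 1.5 ug/ml in Capan-1, and doxycycline at 50 ng/ml induced it over 96 hours, so that the cell lines also differed in the puromycin dose. Each group had 2 arrays, 12 in all. Whether both arrays of a group stem from separate cultures is not in the labels, so the p-values measure the spread between these arrays, which may be technical. Median intensities were 87.7 to 97.0 per array, and 51 to 63 of the 66 member probes were detected on each. The arrays of a group correlated at 0.9907 to 0.9945 across probes, and precision is limited by how few arrays there are. With 2 arrays a group, a disagreement within a group cannot be placed on either array. Of the cell type markers examined, the 6 epithelial genes were detected on all 6 Capan-1 arrays, whereas in MIA PaCa-2 KRT8 and KRT18 were detected on all 6 and CDH1 on none. Of the markers of other cell types, none of 3 endothelial genes was detected on all 6 arrays of a cell line, 1 of 4 leukocyte genes (CD68) was in each, and 1 of 5 fibroblast genes (ACTA2) was in Capan-1. The mesenchymal genes so detected were VIM in each cell line and CDH2 in Capan-1, of 4.

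Focal adhesions link the extracellular matrix to the actin cytoskeleton. Talin and the kindlins bind the tails of integrins, vinculin and the actinins tie them to actin, and FAK and SRC phosphorylate paxillin and p130Cas, the product of BCAR1, which then recruit CRK and DOCK1 to switch on the GTPase RAC1. Zyxin and its relatives gather where adhesions bear force, and caveolins shape small pits of the plasma membrane and are phosphorylated by SRC.

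Values are background-corrected, quantile-normalized log2 intensities, on which a difference of 1 is a factor of 2, and differences were tested with limma on the means of the 6 groups, with p-values adjusted over all 24207 probes tested. A probe passed where the adjusted p was under 0.05. The standard error of a change against shCtrl lay between 0.11 and 0.28 for the member probes. In bulk RNA of this kind, fewer cells of a type and less RNA per cell cannot be told apart.

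The members changed in all 4 pairs of hairpin and cell line, in each direction. In MIA PaCa-2, 12 of the 66 probes were higher and 10 lower with sh1209, where 9.05% and 8.99% of all probes tested were higher and lower. With sh1319, 12 were higher and 16 lower, against 12.2% and 12.1% of all probes. In Capan-1, 12 were higher and 13 lower with sh1209, against 8.14% and 8.69%, and 12 were higher and 11 lower with sh1319, against 6.95% and 6.77%. In all, 33.3%, 42.4%, 37.9% and 34.8% of the member probes passed in these pairs. Most member probes are bright, since 47 of the 66 were detected on all 12 arrays, and such bright probes passed more often on the array as a whole. Of the 11541 probes on the array that were detected on all 12, 27.0%, 36.6%, 25.0% and 20.0% passed in the 4 pairs, against 46.8%, 57.4%, 40.4% and 42.6% of the 47. The median change of the member probes lay between -0.03 and 0.08 in the 4 pairs, where that of all probes lay between -0.01 and 0.01. The balance of rises and falls depended on the scaling. With each array scaled to the same median in place of quantile normalization, the numbers higher and lower in MIA PaCa-2 were 7 and 4 with sh1209 and 12 and 8 with sh1319. In Capan-1 they were 12 and 4 with sh1209 and 11 and 3 with sh1319, and the median of all probes was shifted by up to 0.107 (sh1319 in Capan-1). Of all 24207 probes tested, 2243, 3846, 2459 and 2270 passed in the 4 pairs with this scaling. With quantile normalization 4365, 5887, 4074 and 3322 of them did. The numbers passing also fell in each pair when single arrays were left out, among the member probes and among all probes tested. In MIA PaCa-2 the fewest member probes passed without sh1209 replicate 2 for sh1209, and without shCtrl replicate 1 for sh1319. In Capan-1 the fewest passed without shCtrl replicate 2, for each hairpin.

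**Figure D1:**
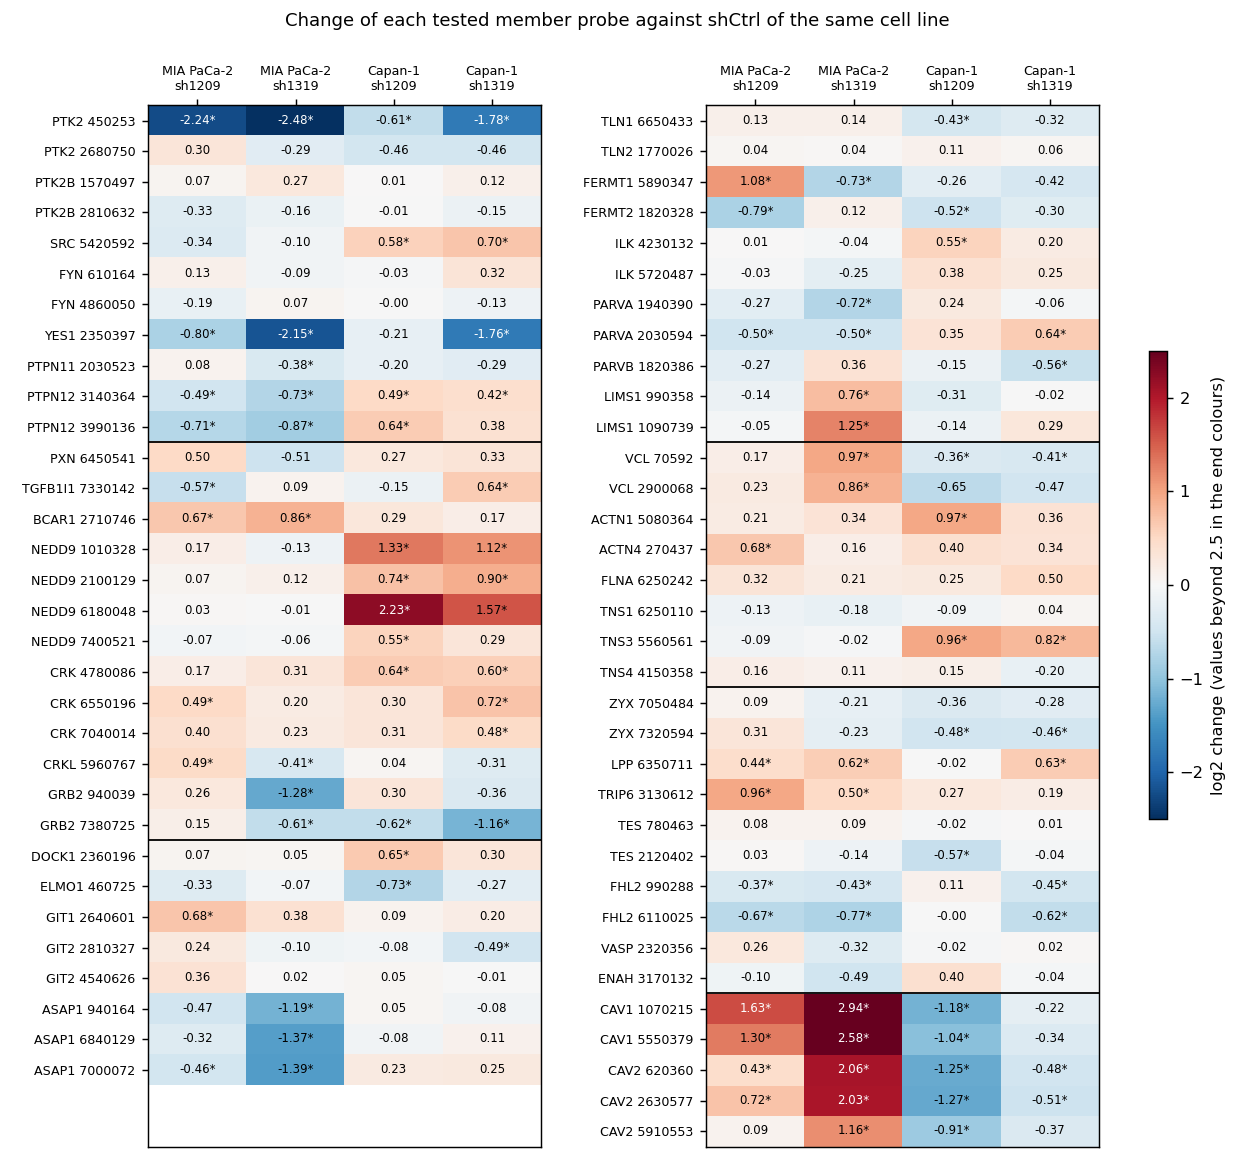
Log2 change of each of the 66 tested member probes (rows, gene symbol and probe number) against shCtrl of the same cell line, in the 4 pairs of hairpin and cell line (columns). Colours give the change, an asterisk marks an adjusted p under 0.05 (limma), and black lines separate the groups of genes by role. The caveolin probes at the lower right are red in MIA PaCa-2 and blue in Capan-1.

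Of the 43 genes, 34 (79.1%) had a probe that passed in at least 1 of the 4 pairs, as did 46.5% of all 19089 gene names with a tested probe. Genes with several probes or a bright probe passed more often, and of the 33 members with a probe detected on all 12 arrays 31 passed, 93.9% against 66.2% of the 9302 such gene names. PTK2 was the 1 gene with a probe that passed with the same sign in all 4, as a fall. Of all gene names 1.39% had a probe that passed with the same sign in all 4, and 2.42% of the 9302. Both hairpins of a cell line were set against the same shCtrl arrays, so a change shared by the hairpins is not independent of those arrays. In MIA PaCa-2, 5 genes had a probe that was higher with both hairpins (BCAR1, LPP, CAV1, CAV2 and TRIP6) and 6 had a probe that was lower with both (PTK2, YES1, PARVA, ASAP1, FHL2 and PTPN12). In Capan-1, 5 genes had a probe that was higher with both (SRC, NEDD9, CRK, TNS3 and PTPN12) and 5 had a probe that was lower with both (PTK2, GRB2, VCL, ZYX and CAV2). Of all gene names, 4.89% and 4.69% had a probe that was higher or lower with both hairpins in MIA PaCa-2. For Capan-1 these shares were 3.92% and 3.87%. Among those with a probe detected on all 12 arrays the shares were 7.41%, 6.98%, 5.08% and 6.08%, against 5, 6, 4 and 5 of the 33 members. CAV2 and PTPN12 had such probes in each cell line, with opposite signs. The 9 genes with no probe past the threshold in any pair were PTK2B, FYN, PXN, TLN2, VASP, ENAH, TNS1, TNS4 and FLNA. Of these, FYN, TLN2 and TNS1 were not detected on both shCtrl arrays of either cell line.

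Some cell type markers moved with the same hairpins. ACTA2, a smooth muscle actin of contractile fibroblasts, was undetected on the shCtrl arrays of MIA PaCa-2 (mean 4.34) and averaged 5.74 with sh1209 and 7.16 with sh1319. In Capan-1 it rose by 0.44 and 0.55 (limma, adjusted p = 0.021 and 0.0078). The epithelial KRT19 fell in MIA PaCa-2 by 1.44 and 1.47 (limma, adjusted p = 0.00025 and 0.00013), and KRT8 by 1.09 with sh1319 (limma, adjusted p = 0.0003). KRT18 changed by -0.80 there with sh1319 at probe 110431 (limma, adjusted p = 0.01). The epithelial genes did not all move in the same direction, since KRT7 rose there by 0.43 with sh1319 (limma, adjusted p = 0.016). That rise was near the background, from undetected with shCtrl and sh1209 (means 4.44 and 4.30) to 4.87 with sh1319. In Capan-1 KRT7 changed by -0.40 and -0.535 (limma, adjusted p = 0.034 and 0.0097), and CDH1 rose by 0.63 with sh1209 (limma, adjusted p = 0.0095). In Capan-1 CDH2, a cadherin of mesenchymal cells, rose by 0.75 and 1.29 (limma, adjusted p = 0.003 and 0.00014). VIM rose there by 0.47 with sh1319 at probe 830593 (limma, adjusted p = 0.036). The endothelial PECAM1 rose there by 0.57 with sh1209 (limma, adjusted p = 0.042). VWF was detected on the Capan-1 sh1209 arrays alone, and LUM, at probe 2490364, on the Capan-1 sh1319 arrays alone. Both entered the test only through the group where they were high, and their calls are left out here. CD68 rose with sh1209 in MIA PaCa-2 by 0.81 at 1 of its 3 probes (limma, adjusted p = 0.00046). Summed over the brightest probe of each gene on the linear scale, the 5 fibroblast markers gave 101 to 107 with shCtrl, 133 to 138 with sh1209 and 220 to 227 with sh1319 in MIA PaCa-2. The sums of the 6 epithelial markers there were 1881 to 1956, 1375 to 1485 and 894 to 1006, respectively. Most of each of these sums was KRT8, with log2 means of 10.67, 10.25 and 9.58. In Capan-1 the fibroblast sums were 158 to 164, 181 to 182 and 200, and the epithelial sums 14713 to 15435, 15222 to 15518 and 11711 to 12917. The fibroblast genes DCN, LUM and PDGFRB in MIA PaCa-2, and COL1A1 and PDGFRB in Capan-1, were detected on no array. In MIA PaCa-2 the probes of COL1A1, DCN, LUM and PDGFRB averaged 4.203 to 4.525 in every group, near the background. The fibroblast sum there thus rose through ACTA2 alone. The order of the groups in ACTA2 in MIA PaCa-2 is that of CAV1 and CAV2 there. By group means VCL probe 70592 and LPP have that order too. In Capan-1 ACTA2 rose with both hairpins, whereas CAV1 and CAV2 lay below shCtrl on average. The part of these markers in the results was not tested.

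Among the kinases and phosphatases, PTK2, which encodes FAK and is the target of the hairpins, was measured by probe 450253 at 9.45 and 9.46 with shCtrl in MIA PaCa-2, at 7.28 and 7.14 with sh1209 and at 6.92 and 7.03 with sh1319. In Capan-1 the values were 10.35 and 10.17, 9.66 and 9.63, and 8.48 and 8.49, respectively. In each cell line all FAK hairpin arrays lay below both shCtrl arrays. The other PTK2 probe, 2680750, was dim, at 4.54 to 6.04, and did not pass against shCtrl in any pair. At probe 450253 the smallest of the 4 falls was that in Capan-1 with sh1209 (-0.61, limma, adjusted p = 0.0036), which was -0.42 and no longer passed with median scaling.

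YES1, a kinase of the SRC family, had the largest fall of the members after PTK2. Its probe read 9.10 and 9.07 with shCtrl in MIA PaCa-2, 8.32 and 8.25 with sh1209, and 6.84 and 7.02 with sh1319. The Capan-1 arrays gave 8.95 and 9.10, 8.78 and 8.85, and 7.27 and 7.26, respectively. The sh1319 arrays lay below every other array of their cell line, and in MIA PaCa-2 the sh1209 arrays lay between them and shCtrl. With sh1319 YES1 changed by -2.15 in MIA PaCa-2 (limma, adjusted p = 1.5e-07), to 22.5% of its control signal. In Capan-1 that hairpin gave -1.76 (limma, adjusted p = 6.5e-06), or 29.5%. With sh1209 the change was -0.80 in MIA PaCa-2 (limma, adjusted p = 0.00057), and -0.21 in Capan-1, which did not pass. Between the hairpins YES1 differed by 1.36 in MIA PaCa-2 (limma, adjusted p = 7.4e-06) and by 1.55 in Capan-1 (limma, adjusted p = 7.6e-06).

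SRC, the founding member of that family, moved in Capan-1. Its values there were 5.50 and 5.58 with shCtrl, 6.0 and 6.25 with sh1209, and 6.15 and 6.33 with sh1319, so that all 4 FAK hairpin arrays lay above both shCtrl arrays. SRC rose by 0.58 with sh1209 (limma, adjusted p = 0.026), and the rise with sh1319 was 0.70 (limma, adjusted p = 0.013). Neither passed when Capan-1 shCtrl replicate 1 or 2, or replicate 2 of its own hairpin, was left out, with values down to 0.26 for sh1209 and 0.32 for sh1319 over the alternatives. In MIA PaCa-2 the values were 6.01 and 6.33, 5.69 and 5.97, and 6.19 and 5.95, which overlapped, and the changes of -0.34 and -0.10 did not pass. FYN and PTK2B, a paralog of FAK, read 4.20 to 5.65 over their 4 probes, and FYN was near the background. PTK2B probe 2810632 was detected on every Capan-1 array. Its means there were 5.49, 5.48 and 5.33 with shCtrl, sh1209 and sh1319, and it did not pass.

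PTPN12, which encodes the phosphatase PTP-PEST that removes phosphate from p130Cas, moved in opposite directions in the cell lines. Probe 3140364 read 9.40 and 9.37 with shCtrl in MIA PaCa-2, 8.92 and 8.88 with sh1209, and 8.59 and 8.72 with sh1319. Capan-1 values were 7.94 and 8.10, 8.48 and 8.54, and 8.54 and 8.34. The FAK hairpin arrays lay below the shCtrl arrays in MIA PaCa-2 and above them in Capan-1. The changes were -0.49 and -0.73 in MIA PaCa-2 with sh1209 and sh1319, respectively. Those in Capan-1 were 0.49 and 0.42, and probe 3990136 gave -0.71, -0.87, 0.64 and 0.38, of which the last did not pass. The difference between the cell lines in the mean change with the FAK hairpins was -1.06 (limma, adjusted p = 0.00055) and -1.30 (limma, adjusted p = 0.0039) at the probes, and passed whichever single array was left out. The changes in each pair held less well. At probe 3140364 the fall with sh1209 in MIA PaCa-2 (-0.51 to -0.43 over the alternatives) and the rise with sh1319 in Capan-1 (0.32 to 0.60) were lost when any 1 of the 4 arrays compared was left out, and the rise with sh1209 in Capan-1 when shCtrl replicate 1 or either sh1209 array was. The fall with sh1319 in MIA PaCa-2 was lost with median scaling (limma, adjusted p = 0.054). At probe 3990136 the falls were lost without MIA PaCa-2 shCtrl replicate 1, without sh1209 replicate 2 or without sh1319 replicate 1, and the rise was lost when any 1 of its 4 arrays was left out (limma, adjusted p of up to 0.27). PTPN11, which encodes the phosphatase SHP2, fell by 0.38 with sh1319 in MIA PaCa-2 (limma, adjusted p = 0.029), and this was lost when any 1 of the 4 arrays compared was left out (-0.43 to -0.24 over the alternatives).

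**Figure D2:**
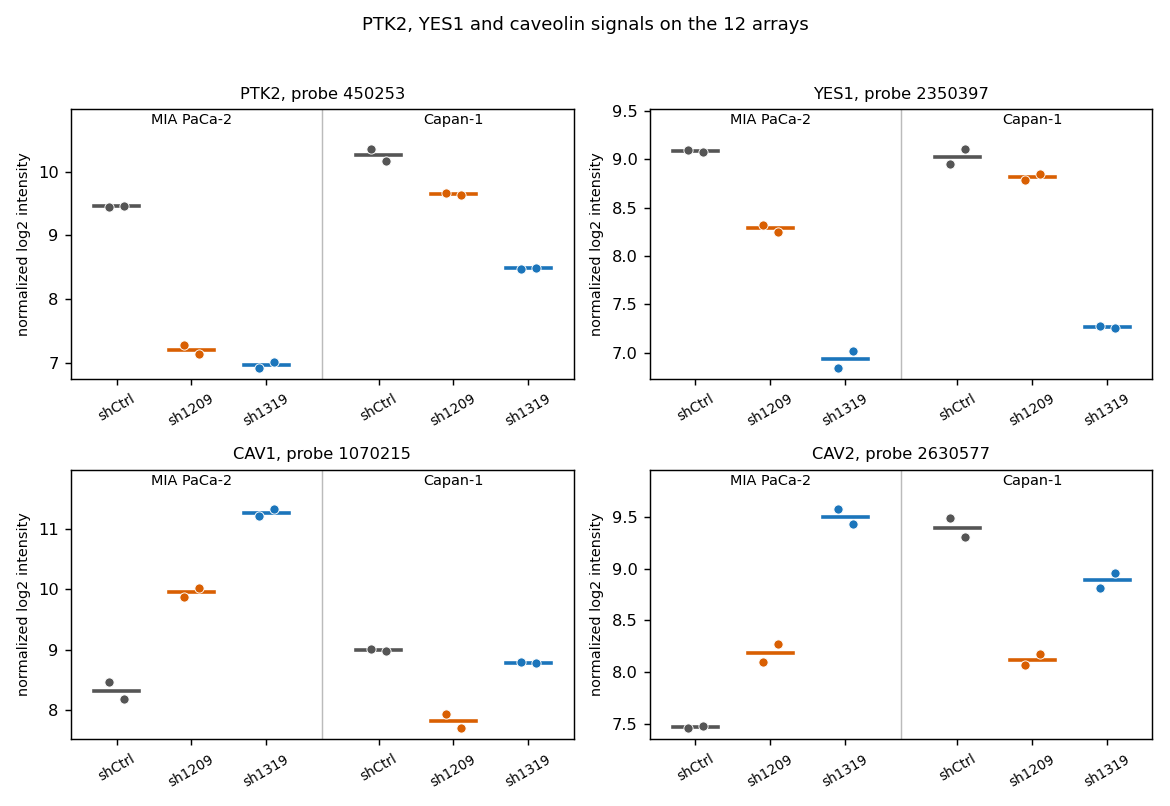
Normalized log2 intensity (vertical axes) on each of the 12 arrays (points) in the 6 groups (horizontal axes), with the mean of each group as a bar, for PTK2, YES1, CAV1 and CAV2. The sh1319 arrays have the lowest YES1 values in each cell line. The caveolin values of the FAK hairpin arrays lie above shCtrl in MIA PaCa-2 and below it in Capan-1.

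The substrates and adaptors of FAK and SRC were led by NEDD9, a scaffold related to p130Cas that binds FAK and is known for its part in migration. In Capan-1, probe 6180048 read 6.24 and 6.60 with shCtrl, 8.67 and 8.63 with sh1209, and 7.92 and 8.05 with sh1319, so that every FAK hairpin array lay above both shCtrl arrays and sh1209 above sh1319. NEDD9 rose by 2.23 with sh1209 (4.69-fold, limma, adjusted p = 7.5e-07). With sh1319 the rise was 1.57 (2.96-fold, limma, adjusted p = 3.6e-05). NEDD9 has 3 more tested probes. Probe 1010328 read 5.30 and 5.33, 6.58 and 6.71, and 6.40 and 6.48, with changes of 1.33 and 1.12. Probe 2100129 rose by 0.74 and 0.90, and the first of these did not pass without Capan-1 shCtrl replicate 2 or sh1209 replicate 1 (limma, adjusted p of up to 0.066). Probe 7400521 was detected on both sh1209 arrays and 1 sh1319 array of Capan-1 and on no other, so that it entered the test only through the groups where it was high, and its call with sh1209 is left out here although it is among the 12 probes counted as higher. In MIA PaCa-2, 3 of the 4 NEDD9 probes were detected on no array, and probe 1010328 was detected on 1 of the 6, so that no change could be read there.

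CRK, an SH2 and SH3 adaptor that binds phosphorylated paxillin and p130Cas, was higher in Capan-1. Its probe 4780086 read 5.72 and 5.61 with shCtrl, 6.38 and 6.22 with sh1209, and 6.24 and 6.29 with sh1319, with no overlap between FAK hairpins and shCtrl. The rises were 0.64 (limma, adjusted p = 0.0042) and 0.60 (limma, adjusted p = 0.007), of which the second did not pass without Capan-1 shCtrl replicate 2 (limma, adjusted p = 0.058). The other CRK probes, 6550196 and 7040014, rose by 0.72 and 0.48 with sh1319, and the latter was lost when any 1 of the 4 arrays compared was left out. In MIA PaCa-2 probe 4780086 read 7.97 and 7.90, 8.01 and 8.19, and 8.32 and 8.17, and its changes of 0.17 and 0.31 did not pass. Probe 6550196 did pass there with sh1209, from 8.62 and 8.45 to 9.05 and 8.99 (0.49, limma, adjusted p = 0.02). This was lost with median scaling, in the fit on 1 cell line and without shCtrl replicate 2 or either sh1209 array (limma, adjusted p of up to 0.14), and the 0.20 with sh1319 did not pass.

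GRB2, the adaptor that couples FAK to RAS, was lower. Probe 7380725 read 7.04 and 7.27 with shCtrl in Capan-1, 6.66 and 6.41 with sh1209, and 5.92 and 6.08 with sh1319. Each sh1319 array lay below each sh1209 array, and these below each shCtrl array. The change was -1.16 with sh1319 (limma, adjusted p = 0.0011) and -0.62 with sh1209 (limma, adjusted p = 0.027), and the latter was lost when any 1 of the 4 arrays compared was left out. In MIA PaCa-2 it read 7.69 and 7.71, 7.60 and 8.10, and 7.18 and 7.00, a change of -0.61 with sh1319 (limma, adjusted p = 0.021) that did not pass without either shCtrl array or without sh1319 replicate 2 (-0.69 to -0.43 over the alternatives). The probes of GRB2 differed. In MIA PaCa-2 probe 940039 fell by 1.28 with sh1319 (limma, adjusted p = 0.00012), and its changes in Capan-1, 0.30 and -0.36, did not pass.

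BCAR1 read 5.33 and 5.30 with shCtrl in MIA PaCa-2, 5.94 and 6.04 with sh1209, and 5.97 and 6.38 with sh1319, so that all FAK hairpin arrays lay above shCtrl. The rise was 0.67 with sh1209 (limma, adjusted p = 0.029), which was lost when any 1 of the 4 arrays compared was left out, and 0.86 with sh1319 (limma, adjusted p = 0.0057), which did not pass without sh1319 replicate 2 (limma, adjusted p = 0.058). In Capan-1 its values of 5.69 and 6.06, 5.91 and 6.42, and 6.01 and 6.07 overlapped. PXN, which encodes paxillin, did not pass against shCtrl, but in MIA PaCa-2 it separated the hairpins, with a difference of 1.01 (limma, adjusted p = 0.0032), with 6.56 and 6.98 for sh1209 and 5.48 and 6.04 for sh1319 on either side of 6.23 and 6.32 for shCtrl. CRKL, a close relative of CRK, rose by 0.49 with sh1209 and fell by 0.41 with sh1319 in MIA PaCa-2. The rise was lost without either shCtrl array or sh1209 replicate 1 and the fall when any 1 of its 4 arrays was left out (limma, adjusted p of up to 0.6), while the difference of 0.89 between the hairpins (limma, adjusted p = 0.0002) held in all alternatives tried but the plain t-test. TGFB1I1, which encodes the paxillin relative Hic-5, fell by 0.57 with sh1209 in MIA PaCa-2 and rose by 0.64 with sh1319 in Capan-1. The fall was lost without sh1209 replicate 1 or with median scaling and the rise without Capan-1 shCtrl replicate 2 (limma, adjusted p = 0.13 and 0.052 at most). Its hairpins differed in each cell line, by -0.65 and -0.79 (sh1209 minus sh1319, limma, adjusted p = 0.0023 and 0.0018).

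Of the guanine exchange and Arf GAP scaffolds, ASAP1, an Arf GTPase-activating protein that binds SRC and FAK, changed most. Probe 7000072 read 7.54 and 7.60 with shCtrl in MIA PaCa-2, 7.09 and 7.15 with sh1209, and 6.14 and 6.22 with sh1319, in 3 steps without overlap. On the Capan-1 arrays it stood at 6.28 and 6.35, 6.63 and 6.45, and 6.62 and 6.51. The fall with sh1319 in MIA PaCa-2 was 1.39 at this probe (limma, adjusted p = 4.8e-06) and was found at all 3 ASAP1 probes, with changes of -1.37 and -1.19 at probes 6840129 and 940164. With sh1209 the change was -0.46 (limma, adjusted p = 0.017), which was lost when any 1 of the 4 arrays compared was left out, and with median scaling. In Capan-1 the 3 probes changed by -0.08 to 0.25 and none passed. The difference between the cell lines passed at all 3 probes (-1.16, -0.86 and -0.81), and at the last it was lost without Capan-1 shCtrl replicate 1 (limma, adjusted p = 0.064). DOCK1, the exchange factor that loads RAC1 downstream of CRK, rose in Capan-1 by 0.65 with sh1209 (limma, adjusted p = 0.016), and its partner ELMO1 fell by 0.73 there (limma, adjusted p = 0.0074). Both were lost without sh1209 replicate 1 or shCtrl replicate 2 of Capan-1 (0.21 to 0.82 for DOCK1 and -0.93 to -0.45 for ELMO1 over the alternatives). GIT1 rose by 0.68 with sh1209 in MIA PaCa-2 and GIT2 fell by 0.49 with sh1319 in Capan-1, and both were lost without most single arrays of those compared (0.33 to 0.82 for GIT1 and -0.53 to -0.16 for GIT2 over the alternatives).

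In the module of talin, kindlins and integrin-linked kinase (ILK), LIMS1, which encodes the adaptor PINCH1 of the ILK complex, rose with sh1319 in MIA PaCa-2. Probe 1090739 read 6.61 and 6.77 with shCtrl, 6.52 and 6.76 with sh1209, and 8.02 and 7.85 with sh1319, and in Capan-1 6.54 and 6.57, 6.34 and 6.48, and 6.90 and 6.79. The sh1319 arrays of MIA PaCa-2 stood above the other 10 arrays. The rise was 1.25 (limma, adjusted p = 3e-05) at this probe and 0.76 (limma, adjusted p = 0.00036) at probe 990358, and the hairpins differed by -1.30 and -0.90 (sh1209 minus sh1319).

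The parvins bind ILK and actin. PARVA probe 2030594 read 6.80 and 7.01 with shCtrl in MIA PaCa-2, 6.44 and 6.38 with sh1209, and 6.32 and 6.49 with sh1319. In Capan-1 it read 6.43 and 6.16, 6.78 and 6.51, and 6.90 and 6.97. At this probe all FAK hairpin arrays lay below shCtrl in MIA PaCa-2 and above it in Capan-1. The changes in MIA PaCa-2 were -0.50 (limma, adjusted p = 0.031) and -0.50 (limma, adjusted p = 0.023). The first did not pass without shCtrl replicate 2 or either sh1209 array, and the second without shCtrl replicate 2 or sh1319 replicate 1 (-0.60 to -0.29 over the alternatives), and neither passed with median scaling. In Capan-1 the rise with sh1319 was 0.64 (limma, adjusted p = 0.012), which was lost without shCtrl replicate 2 or sh1319 replicate 2 (limma, adjusted p = 0.1 at most), and the 0.35 with sh1209 did not pass. The difference between the cell lines, -0.99 (limma, adjusted p = 0.0029), passed whichever single array was left out. The other PARVA probe, 1940390, was dim. It read 5.22 and 4.89 with shCtrl in MIA PaCa-2 and 4.70 and 4.87 with sh1209, and was not detected with sh1319, where it was at least 1.28-fold lower (limma, adjusted p = 0.014). A bound of this kind sets the mean of the brighter group against, for each array of the other group, the lowest signal among its detected probes or the probe's own signal, whichever was higher. The call was lost with median scaling and without shCtrl replicate 1 or either sh1319 array (limma, adjusted p of up to 0.1). In Capan-1 this probe read 4.87 and 5.13, 5.52 and 4.96, and 4.87 and 5.02, which overlapped, and its changes of 0.24 and -0.06 did not pass. Its difference between the cell lines, -0.59, did not pass either. PARVB fell by 0.56 with sh1319 in Capan-1, which was lost without either shCtrl array or sh1319 replicate 1 (limma, adjusted p of up to 0.46 over the alternatives).

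Kindlins activate integrins together with talin. FERMT1, which encodes the kindlin of epithelia, separated the hairpins in MIA PaCa-2. Its values were 6.59 and 6.75 with shCtrl, 7.68 and 7.81 with sh1209, and 6.14 and 5.73 with sh1319, a rise of 1.08 (limma, adjusted p = 0.001), a fall of 0.73 (limma, adjusted p = 0.0081) and a difference of 1.81 (limma, adjusted p = 1.6e-05). The fall was lost without shCtrl replicate 2 or sh1319 replicate 2 (limma, adjusted p of up to 0.081), while the difference held. FERMT2 read 9.69 and 9.82 with shCtrl in MIA PaCa-2, 8.96 and 8.96 with sh1209, and 9.86 and 9.90 with sh1319, and in Capan-1 6.98 and 7.15, 6.73 and 6.37, and 6.87 and 6.66. It fell with sh1209 by 0.79 in MIA PaCa-2 (limma, adjusted p = 0.0024), and by 0.52 in Capan-1 (limma, adjusted p = 0.027), where the fall did not pass without either shCtrl array or sh1209 replicate 2, or with median scaling (-0.26). TLN1, which encodes talin, fell by 0.43 with sh1209 in Capan-1 and ILK rose by 0.55 at probe 4230132. The former was lost when any 1 of the 4 arrays compared was left out and the latter did not pass without sh1209 replicate 2 (limma, adjusted p = 0.05).

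**Figure D3:**
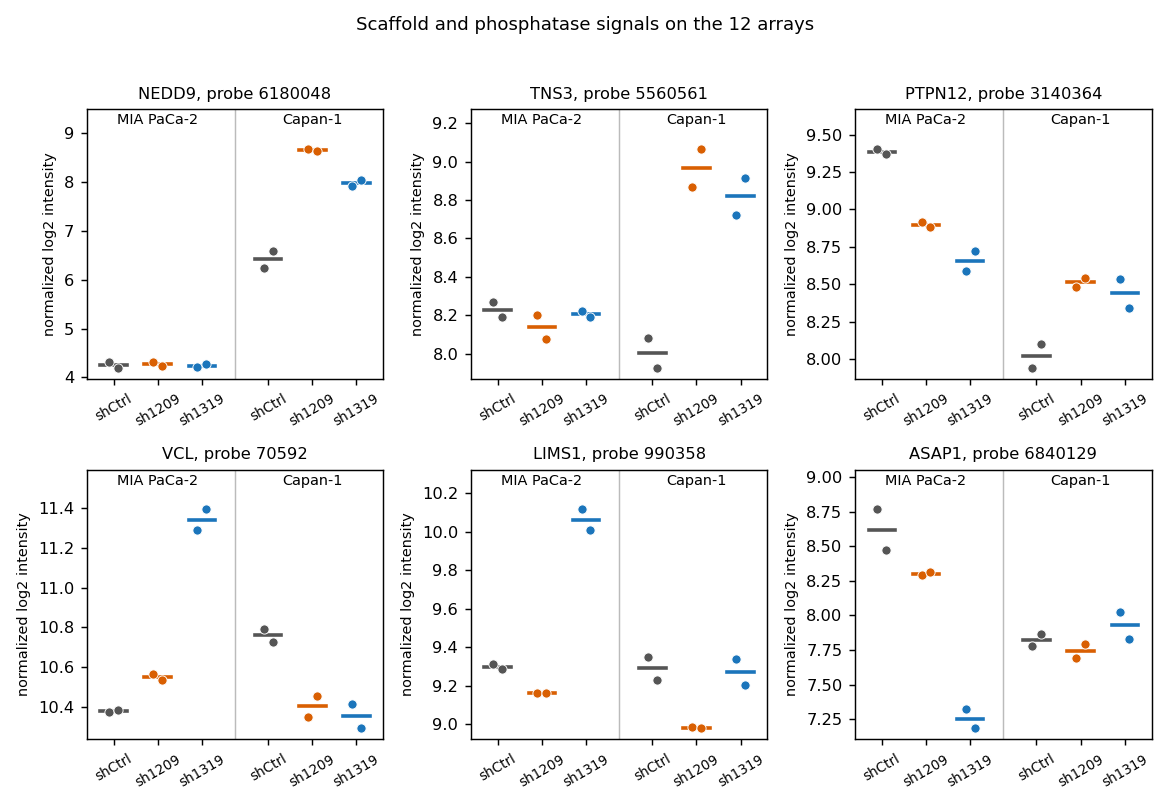
Normalized log2 intensity (vertical axes) on each of the 12 arrays (points) in the 6 groups (horizontal axes), with the mean of each group as a bar, for NEDD9, TNS3, PTPN12, VCL, LIMS1 and ASAP1. NEDD9 and TNS3 are higher with both FAK hairpins in Capan-1, and LIMS1, VCL and ASAP1 stand apart with sh1319 in MIA PaCa-2.

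Of the proteins that tie adhesions to actin, TNS3, a tensin that bridges integrin tails and actin, rose in Capan-1. Its values there were 8.08 and 7.92 with shCtrl, 8.87 and 9.06 with sh1209, and 8.72 and 8.91 with sh1319, all FAK hairpin arrays above both shCtrl arrays. In MIA PaCa-2 they were 8.27 and 8.19, 8.20 and 8.08, and 8.22 and 8.19. The rise was 0.96 for sh1209 (limma, adjusted p = 0.00034) and 0.82 for sh1319 (limma, adjusted p = 0.0014), and the changes of -0.09 and -0.02 in MIA PaCa-2 did not pass. The difference between the cell lines was -0.95 (limma, adjusted p = 0.0018).

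VCL, which encodes vinculin, was measured by probe 70592 at 10.37 and 10.38 with shCtrl in MIA PaCa-2, 10.57 and 10.54 with sh1209, and 11.29 and 11.39 with sh1319. The Capan-1 arrays gave 10.79 and 10.73, 10.35 and 10.46, and 10.41 and 10.29. The FAK hairpin arrays lay above shCtrl in MIA PaCa-2 and below it in Capan-1. The rise of 0.97 with sh1319 in MIA PaCa-2 (limma, adjusted p = 6e-05) held in all alternatives but the plain t-test. In Capan-1 the change was -0.36 for sh1209 (limma, adjusted p = 0.046) and -0.41 for sh1319 (limma, adjusted p = 0.03). Each was lost when any 1 of the 4 arrays compared was left out, and with median scaling. The cell lines differed in their response by 0.95 (limma, adjusted p = 0.0007), and by 1.11 at probe 2900068, where it was lost without shCtrl replicate 1 of either cell line (limma, adjusted p of up to 0.088). The actinins cross-link actin. ACTN1 rose by 0.97 with sh1209 in Capan-1, from 9.57 and 9.43 to 10.50 and 10.44 (limma, adjusted p = 0.00034). ACTN4 rose by 0.68 with sh1209 in MIA PaCa-2 (limma, adjusted p = 0.0071), which was lost without shCtrl replicate 1 or sh1209 replicate 2 (limma, adjusted p of up to 0.064).

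Among the zyxin family and other LIM proteins, TRIP6 read 8.79 and 8.89 with shCtrl in MIA PaCa-2, 9.73 and 9.86 with sh1209, and 9.40 and 9.29 with sh1319, all FAK hairpin arrays above shCtrl. The rise was 0.96 for sh1209 (limma, adjusted p = 0.00022) and 0.50 for sh1319 (limma, adjusted p = 0.0099), and the latter was lost without shCtrl replicate 1 or sh1319 replicate 1 (limma, adjusted p of up to 0.072). Capan-1 values were 9.54 and 9.40, 9.65 and 9.84, and 9.70 and 9.63, changes of 0.27 and 0.19 that did not pass.

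LPP, a zyxin relative also found at cell junctions, read 7.49 and 7.54 with shCtrl in MIA PaCa-2, 7.81 and 8.11 with sh1209, and 8.24 and 8.04 with sh1319. On the Capan-1 arrays it stood at 9.09 and 9.28, 9.10 and 9.24, and 9.82 and 9.81, so that sh1319 stood above shCtrl in each cell line and sh1209 in MIA PaCa-2. In MIA PaCa-2 the rise was 0.44 for sh1209 (limma, adjusted p = 0.044) and 0.62 for sh1319 (limma, adjusted p = 0.0057), and it was 0.63 with sh1319 in Capan-1 (limma, adjusted p = 0.01). The first was lost without either shCtrl array or sh1209 replicate 2, the second without sh1319 replicate 1 and the third without shCtrl replicate 1 or either sh1319 array (limma, adjusted p of up to 0.27, 0.058 and 0.089 over the alternatives).

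FHL2, a LIM protein that shuttles between adhesions and the nucleus, fell. Probe 6110025 read 8.99 and 8.84 with shCtrl in MIA PaCa-2, 8.22 and 8.27 with sh1209, and 8.14 and 8.16 with sh1319. In Capan-1 it read 9.30 and 9.39, 9.21 and 9.47, and 8.72 and 8.73. The changes were -0.67 (limma, adjusted p = 0.0026) and -0.77 (limma, adjusted p = 0.00067) in MIA PaCa-2 and -0.62 with sh1319 in Capan-1 (limma, adjusted p = 0.0059), while sh1209 did not pass there. The last was lost without shCtrl replicate 2 of Capan-1 and with median scaling (limma, adjusted p of up to 0.28). Probe 990288 gave -0.37, -0.43 and -0.45 in the same 3 pairs, and none of these passed under most single removals.

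ZYX, which encodes zyxin, read 7.66 and 7.70 with shCtrl in Capan-1 at probe 7320594, 7.18 and 7.21 with sh1209, and 7.31 and 7.12 with sh1319, all FAK hairpin arrays below shCtrl. In MIA PaCa-2 it read 8.37 and 8.41, 8.69 and 8.71, and 8.21 and 8.12. The falls in Capan-1, -0.48 (limma, adjusted p = 0.012) and -0.46 (limma, adjusted p = 0.018), were lost with median scaling. That with sh1209 was also lost when any 1 of the 4 arrays compared was left out, and that with sh1319 without either shCtrl array or sh1319 replicate 2 (-0.56 to -0.19 over the alternatives). Probe 7050484 did not pass against shCtrl. TES, which encodes testin, was not detected on any MIA PaCa-2 array and fell by 0.57 at probe 2120402 with sh1209 in Capan-1, which was lost without shCtrl replicate 2 or sh1209 replicate 1 (limma, adjusted p of up to 0.27 over the alternatives).

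The caveolins moved in opposite directions in the cell lines, and CAV1 moved furthest of the members. CAV1 and CAV2 encode proteins that assemble together into caveolae. In the RefSeq annotation of GRCh38.p14, TES, CAV2 and CAV1 follow one another as protein-coding genes on chromosome 7. The 250 bases before the start of CAV1 and CAV2 are shown because these neighbours moved together, with GC boxes (GGGCGG on either strand) in capitals. They lie on the plus strand, at chr7:116524759-116525008 for CAV1 and chr7:116499488-116499737 for CAV2.
CAV1: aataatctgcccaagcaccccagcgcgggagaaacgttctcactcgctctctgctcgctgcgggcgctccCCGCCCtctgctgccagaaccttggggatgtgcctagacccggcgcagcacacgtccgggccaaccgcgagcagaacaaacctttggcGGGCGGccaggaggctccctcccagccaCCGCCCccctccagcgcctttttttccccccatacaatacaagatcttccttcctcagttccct
CAV2: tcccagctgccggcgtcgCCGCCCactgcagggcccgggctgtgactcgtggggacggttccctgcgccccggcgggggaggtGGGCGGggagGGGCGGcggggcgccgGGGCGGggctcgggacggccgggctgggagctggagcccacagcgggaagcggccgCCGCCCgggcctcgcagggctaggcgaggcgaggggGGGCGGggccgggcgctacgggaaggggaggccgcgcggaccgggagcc
The CAV1 window holds 3 GC boxes and the CAV2 window 6, at a GC content of 63.6% and 83.2%. Of 35114 promoters of this length, 42.6% hold at least 1 GC box, as do 23 of the 35 members with an entry. Only the first entry of each member was searched, whereas every entry in the reference counts among the 35114. Neither window holds the TEAD core GGAATG, the AP-1 site TGANTCA or a CArG box, the site of SRF, which are found on either strand in 11.9%, 6.57% and 1.16% of the promoters and in 2, 4 and 2 of the 35 members. The motifs searched do not contain one another, and a match is a match of letters only.

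CAV1 probe 1070215 read 8.47 and 8.18 with shCtrl in MIA PaCa-2, 9.88 and 10.03 with sh1209, and 11.22 and 11.32 with sh1319. The Capan-1 arrays gave 9.02 and 8.98, 7.94 and 7.70, and 8.79 and 8.78. The FAK hairpin arrays lay above shCtrl in MIA PaCa-2 and below it in Capan-1, with sh1319 above sh1209 in each cell line. The rise in MIA PaCa-2 was 1.63 with sh1209 (3.09-fold, limma, adjusted p = 8e-06) and 2.94 with sh1319 (7.69-fold, limma, adjusted p = 5.1e-08). With sh1209 in Capan-1 CAV1 changed by -1.18 (limma, adjusted p = 0.00013), to 44.1% of its control signal, and by -0.22 with sh1319, which did not pass. Probe 5550379 gave 1.30, 2.58, -1.04 and -0.34 in the 4 pairs, and the last did not pass there either.

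CAV2 probe 2630577 read 7.45 and 7.48 with shCtrl in MIA PaCa-2, 8.09 and 8.27 with sh1209, and 9.57 and 9.43 with sh1319. Capan-1 values were 9.49 and 9.30, 8.06 and 8.18, and 8.81 and 8.96, again with sh1319 above sh1209. The changes were 0.72 (limma, adjusted p = 0.002), 2.03 (limma, adjusted p = 4.6e-07), -1.27 (limma, adjusted p = 4.2e-05) and -0.51 (limma, adjusted p = 0.019). The last was lost without Capan-1 shCtrl replicate 1 or sh1319 replicate 1 and with median scaling (-0.60 to -0.32 over the alternatives). Probe 620360 gave 0.43, 2.06, -1.25 and -0.48, with the same losses for the last, and its rise with sh1209 was lost when any 1 of the 4 arrays compared was left out, and with median scaling (0.23 to 0.49 over the alternatives). Probe 5910553, whose standard error of 0.28 was the largest among the members, gave 0.09, 1.16, -0.91 and -0.37. Its rise with sh1319 in MIA PaCa-2 was lost without shCtrl replicate 1 or sh1319 replicate 1, and its fall with sh1209 in Capan-1 when any 1 of the 4 arrays compared was left out (limma, adjusted p of up to 0.31). In all, 4 of the 5 caveolin probes passed in opposite directions with sh1209 in the cell lines.

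The FAK hairpins differed from each other at 25 of the 66 member probes in MIA PaCa-2, where 22.6% of all probes differed, and at 15 in Capan-1, where 11.3% did. As shares these were 37.9% and 22.7%. In MIA PaCa-2 14 were higher and 11 lower with sh1209 than with sh1319, against 9 and 12 with median scaling. Of all probes tested, 5478 differed there, against 3477 with median scaling. Of the probes detected on all 12 arrays, 51.1% of the member probes and 35.3% of all differed in MIA PaCa-2. In Capan-1 the shares were 27.7% and 16.4%. The differences that held in all alternatives but the plain t-test numbered 17 in MIA PaCa-2, on 12 genes, and 5 in Capan-1, on 5 genes. Whether calls held was followed for the member probes alone, so there is no share of all probes to set beside these. YES1, CAV1, CAV2 and TGFB1I1 held in each cell line, with sh1319 below sh1209 for YES1 and above it for the other 3. PTK2 differed between the hairpins at probe 450253 in Capan-1 (1.16, limma, adjusted p = 6.2e-05), and the difference of 0.24 in MIA PaCa-2 did not pass (limma, adjusted p = 0.17). The dim probe 2680750 did pass there, at 5.46 and 5.23 with sh1209 against 4.98 and 4.54 with sh1319, of which the last was not detected (0.59, limma, adjusted p = 0.021). This was lost without background correction, with median scaling, in the fit on 1 cell line and without sh1209 replicate 1 or sh1319 replicate 2 (limma, adjusted p of up to 0.18). Whether the unequal level of PTK2 plays a part in these differences was not tested.

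The response to the FAK hairpins, as the mean of the changes with sh1209 and sh1319, differed between the cell lines at 24 of the 66 member probes, where 14.4% of all probes differed. Among probes detected on all 12 arrays the shares were 44.7% of 47 and 18.6% of 11541. The 24 probes belong to 14 genes, of which 6 had the higher response in MIA PaCa-2 (VCL, ZYX, LIMS1, CAV1, CAV2 and TRIP6) and 8 in Capan-1 (PTK2, SRC, YES1, NEDD9, PARVA, TNS3, ASAP1 and PTPN12). For PTK2 and YES1 a higher response means a smaller fall. The largest differences were at CAV1, 2.98 at probe 1070215 (95% confidence interval 2.62 to 3.35, limma, adjusted p = 5.2e-07) and 2.64 at probe 5550379. CAV2 differed by 2.27, 2.11 and 1.27 at its 3 probes. NEDD9 differed by -1.89, -1.20 and -0.73, but since it was detected on at most 1 MIA PaCa-2 array at any probe this sets a rise in Capan-1 against a gene at the background. The NEDD9 probes passed the detection filter only through the Capan-1 arrays. The differences at SRC, ZYX, LIMS1, TRIP6 and YES1 were lost when single arrays were left out, without MIA PaCa-2 shCtrl replicate 2 or Capan-1 shCtrl replicate 1 for SRC (limma, adjusted p = 0.059 at most) and without 6 or more single arrays for the others. At 14 probes of 9 genes the difference passed in all alternatives, single arrays left out included. These were 2 of 3 probes of ASAP1, both of CAV1, 2 of 3 of CAV2, 2 of 4 of NEDD9, both of PTPN12, 1 of 2 of VCL, and the probes 2030594 of PARVA, 450253 of PTK2 and 5560561 of TNS3. The 2 NEDD9 probes are counted here, but they passed the filter only through Capan-1, and their differences serve as description only. The share of all probes that passed in every alternative was not counted. The cell lines also differed in puromycin dose, which cannot be told apart from the cell line.

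**Figure D4:**
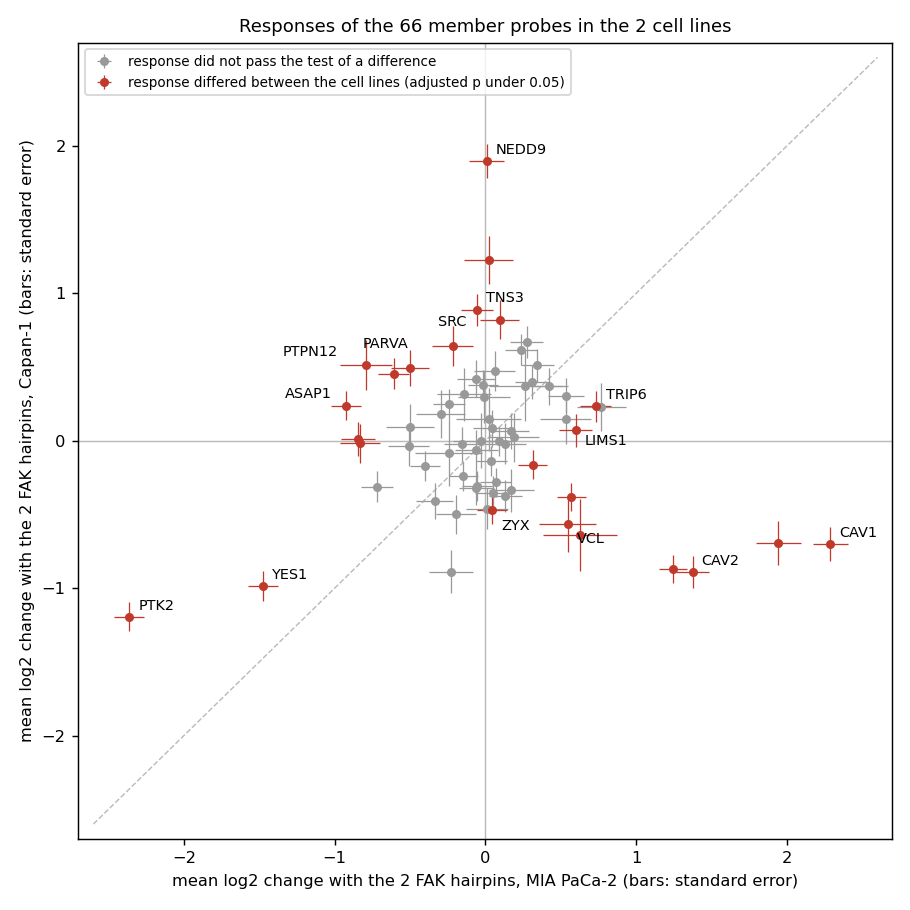
Mean log2 change with the 2 FAK hairpins against shCtrl in MIA PaCa-2 (horizontal axis) and Capan-1 (vertical axis) for the 66 member probes, with standard errors as bars. Red probes differed between the cell lines (limma, adjusted p under 0.05), 1 probe of each such gene is named, and the dashed line marks equal responses. CAV1, CAV2 and VCL lie in the lower right part and PTPN12, PARVA and SRC in the upper left one.

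With the control hairpin the cell lines differed at 43 of the 66 member probes, with 22 higher and 21 lower in MIA PaCa-2, where 22.5% and 19.6% of all probes were higher and lower. The share of 65.2% compares with 42.1% of all probes tested. Of the probes detected on all 12 arrays, 74.5% of the 47 member probes and 57.5% of all differed. Of the members, 33 were detected on both shCtrl arrays of each cell line. ENAH and DOCK1 were detected on both in MIA PaCa-2 alone, and PTK2B, NEDD9, TNS4, TES and FLNA in Capan-1 alone. FERMT2 and CRK had the largest differences among the members detected on both sides. FERMT2, the kindlin of mesenchymal and other cells, read 9.69 and 9.82 in MIA PaCa-2 against 6.98 and 7.15 in Capan-1, a difference of 2.69 (6.44-fold, limma, adjusted p = 2.1e-08). CRK probe 4780086 read 7.97 and 7.90 against 5.72 and 5.61, a difference of 2.27 (limma, adjusted p = 2.3e-08), where its other probes gave 1.02 and 0.93. NEDD9 was at least 3.27-fold lower in MIA PaCa-2, where probe 6180048 was not detected, so that its place among the differences is not known. TES was at least 2.20-fold and 1.59-fold lower there at its probes. The probes of TES and TNS4 and NEDD9 probes 6180048, 2100129 and 1010328 passed the detection filter only through Capan-1, where they were higher. They are counted among the 21 lower probes, and their differences serve as description only. CAV2 was lower in MIA PaCa-2, with differences of -1.93 (3.81-fold), -1.48 and -0.98 at its 3 probes, as was LPP (-1.67), while PTPN12 was higher by 1.36 and 1.47, and ASAP1 by 0.80 to 1.26. Of these, the difference at CAV2 probe 5910553 (limma, adjusted p = 0.014) was lost without MIA PaCa-2 shCtrl replicate 1 or either Capan-1 shCtrl array (limma, adjusted p of up to 0.077). YES1 differed by 0.06 and did not pass.

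**Figure D5:**
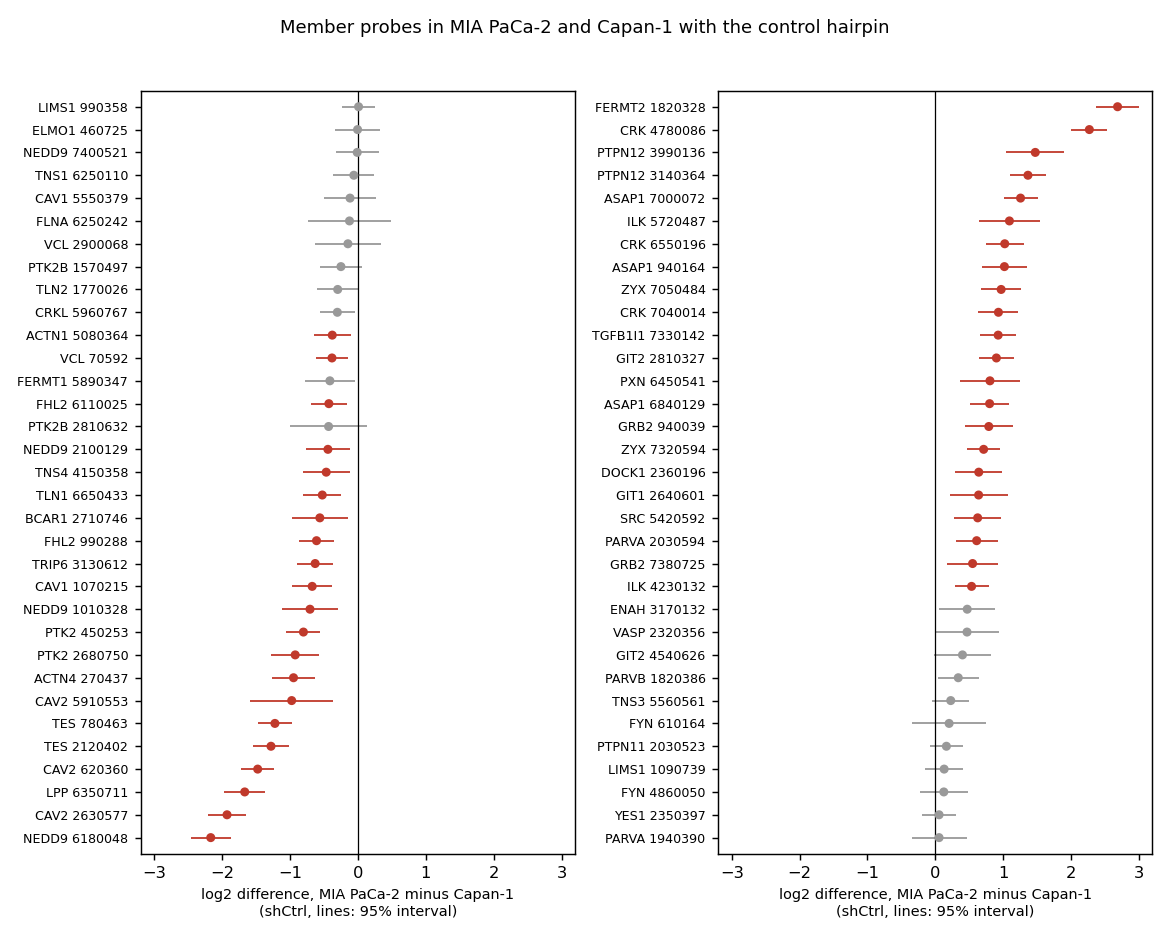
Log2 difference between MIA PaCa-2 and Capan-1 with shCtrl (horizontal axes, MIA PaCa-2 minus Capan-1) for each of the 66 member probes (rows, in order of the difference), with 95% confidence intervals as lines. Red marks an adjusted p under 0.05 (limma). FERMT2 and CRK stand at the upper end of the right panel and NEDD9, CAV2 and LPP at the lower end of the left one, where NEDD9 was not detected in MIA PaCa-2 and its plotted value is the fitted one.

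The members whose values followed PTK2 most closely over the 12 arrays, with the mean of each cell line taken off and the brightest probe of each gene, were YES1 (Pearson correlation 0.872), FHL2 (0.860) and GRB2 (0.593). LPP (-0.895) and CRK (-0.769) stood at the other end. These describe 12 arrays that share 6 hairpin groups. YES1 had its lowest values with sh1319 in each cell line, as did PTK2 at probe 450253.

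Other genes of the pathway were taken from a list of names. Of 34 adhesion partners and paralogs, 27 had a tested probe, 44 in all. In MIA PaCa-2, 12 of these were higher and 0 lower with sh1209, and 12 higher and 7 lower with sh1319, while in Capan-1 4 were higher and 1 lower with sh1209, and 5 higher and 3 lower with sh1319. In all, 27.3%, 43.2%, 11.4% and 18.2% of the 44 passed, where 18.0%, 24.3%, 16.8% and 13.7% of all probes tested did, so that the share with sh1209 in Capan-1 was below that of all probes. On this list CAVIN1, named PTRF in the table, was the gene with a probe that passed with the same sign in all 4 pairs. Of all gene names with a tested probe 1.39% had such a probe, and 2.42% of those with a probe detected on all 12 arrays. CAVIN1, which caveolins need to form caveolae, rose by 0.53, 0.45, 0.69 and 0.75 (limma, adjusted p of 0.015 or less), in Capan-1 as in MIA PaCa-2, whereas CAV1 and CAV2 fell with sh1209 in Capan-1.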

How the data were processed

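Of 12 samples, 2 for each of 6 groups, RNA was hybridised to Illumina HumanHT-12 v4 arrays, and groups were taken from the labels. The authors deposited linear, unnormalized probe intensity values with a detection p-value for each, and the submitters' processing notes name GenomeStudio 2011.1. The table has 47320 rows, and its 92 spike-in controls were left out after background correction.

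Background was corrected by nec of limma (normexp from the detection p-values, offset 16), which understates changes of dim probes, before quantile normalization and log2. The 24207 probes detected (p under 0.05) on at least 2 arrays were tested. Group means were fitted in limma 3.58.1 (R 4.3.3; lmFit, eBayes; 6 residual degrees of freedom), with Benjamini-Hochberg adjustment for each comparison separately. The code was tested on simulated data. Every array is given for PTK2, for members with a probe past the threshold with the same sign with both hairpins of a cell line, and for the 3 members with the largest fitted difference between the cell lines (FERMT2, CRK and NEDD9); array values of other members were added after they were seen. The members and lists were chosen with earlier results of these data known. Alternatives were a fit without background correction, scaling to the median, testing all probes, a stricter detection filter (p under 0.01 on at least 4 arrays), array weights, the replicate number as a block, a fit on 1 cell line, the plain t-test of the methods on the same values, and leaving out each array. The array weights were the same for both arrays of each group, so they weighed groups and could not single out an array. All 43 names are current RefSeq symbols, and 35 have a promoter entry (GRCh38.p14), all but PTK2, PTK2B, SRC, PARVA, FERMT1, TNS4, ASAP1 and PTPN11. A second list of pathway genes is not reported here.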

Additional observations from a re-analysis of the deposited data

Results flagged for a closer look

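The response to the FAK hairpins (mean change with sh1209 and sh1319 against shCtrl) differed between MIA PaCa-2 and Capan-1, by the interaction term of limma at an adjusted p under 0.05, at 24 member probes. Differences are MIA PaCa-2 minus Capan-1 on the log2 scale. The caveolins had the largest, at 2.98 and 2.64 for the CAV1 probes and 2.27, 2.11 and 1.27 for the CAV2 probes, with mean changes of 1.24 to 2.29 in MIA PaCa-2 and -0.89 to -0.70 in Capan-1 at 4 of the 5 probes. The fifth, CAV2 probe 5910553 with the difference of 1.27, had changes of 0.63 and -0.64 that did not pass on their own (limma, adjusted p = 0.095 and 0.1). VCL differed the same way, by 0.95 and 1.11.

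NEDD9 differed by -1.89, -1.20 and -0.73, at 0.01 to 0.09 in MIA PaCa-2, where it was near the background, and 0.82 to 1.90 in Capan-1. TNS3 differed by -0.95, from a MIA PaCa-2 response of -0.06 and a Capan-1 response of 0.89. The ASAP1 probes differed by -1.16, -0.86 and -0.81, from MIA PaCa-2 responses of -0.92 to -0.83 and Capan-1 responses of -0.02 to 0.24.

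PTPN12 (-1.06 and -1.30), PARVA (-0.99) and SRC (-0.86) were below shCtrl on average in MIA PaCa-2 and above it in Capan-1. PTK2 (-1.17) and YES1 (-0.49) were lower in each cell line, and more so in MIA PaCa-2. ZYX (0.51), LIMS1 (0.53 and 0.48) and TRIP6 (0.50) had the smallest differences that passed, together with YES1. The cell lines also differed in puromycin dose, which cannot be told apart from the cell line.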

How the results depend on the processing

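Of 2559 values recomputed for the 205 member calls, 2002 kept their direction and their side of the threshold, 557 kept their direction alone, and 0 reversed. With median scaling the number of member probes past the threshold was 11 (sh1209) in MIA PaCa-2, 16 (sh1209) and 14 (sh1319) in Capan-1, and 6 between the hairpins in Capan-1, with the higher share moving from 56.0% to 42.9% between the hairpins in MIA PaCa-2. Of all 24207 probes tested, 2243, 2459, 2270 and 1217 passed in the first 4 of these comparisons. With quantile normalization 4365, 4074, 3322 and 2730 of them did. The methods' t-test, with 2 arrays a group and no pooled spread, passed 0 member probes with sh1209 or sh1319 against shCtrl, or between the hairpins, in either cell line, and 18 between the cell lines with shCtrl, and was not run for the difference in response. Of all probes tested, it passed at most 4 against shCtrl or between the hairpins, and 3905 between the cell lines.

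Leaving out 1 array, after which the lone array is assumed to vary like the other groups, gave 11 to 15 (sh1209) and 19 to 22 (sh1319) in MIA PaCa-2, 12 to 15 and 11 to 15 in Capan-1, 22 to 24 and 8 to 11 between the hairpins of MIA PaCa-2 and Capan-1, 15 to 23 for the difference in response and 33 to 39 between the cell lines. Among the member probes the lowest numbers were without Capan-1 sh1209 replicate 1 between the hairpins of Capan-1 and without Capan-1 shCtrl replicate 1 for the difference in response. Single calls were followed through the alternatives for the member probes alone, so there is no share of all probes for those that held. In all, 104 of the 205 calls held under every alternative but the t-test.

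The replicate numbers did not pair the samples (correlations of deviations -0.061 to 0.160, 1 of 15 over 0.1), and with them as a replicate block 21, 28, 23, 23, 26, 14, 22 and 43 member probes passed, in the order of the comparisons as the report gives them. Of all probes tested, 4247, 5827, 3914, 3191, 5433, 2610, 3365 and 10112 passed with the block, in the same order.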
